A study of Mus musculus with 6 samples.

Results

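The genes examined here were 48 genes of DNA replication and S phase, taken by their symbols from a list of replication factors, enzymes of nucleotide supply, histone and chromatin factors and E2F factors. All 48 were found in the deposited tables, which held 57010 annotated genes, and all 48 were among the 15903 genes tested. Bone marrow-derived macrophages (BMDMs), which are marrow cells grown into macrophages with the growth factor M-CSF, came from 3 Cx3cr1GFP mice on the C57BL/6J background, in which GFP marks the Cx3cr1 locus. Both groups carried this allele and were grown with 10 ng/ml M-CSF. The control group was left unstimulated, and the NaCl group was given 62 mM excess NaCl for 24 h. Each mouse gave 1 control and 1 NaCl library, so that each group had 3 libraries. Floating cells were discarded and the adherent cells were sequenced, so cells that had detached were not measured. The age and sex of the mice were not given in the sources used here.

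DNA replication is prepared in G1, when the origin recognition complex, Cdc6 and Cdt1 load the ring-shaped MCM helicase onto DNA. In S phase Cdc45 and the GINS complex switch the ring on, polymerases copy both strands on a sliding clamp of Pcna, and chromatin assembly factors rebuild nucleosomes behind the fork. Many of these genes are transcribed together under E2F transcription factors, which the retinoblastoma family holds back in resting cells. M-CSF is a mitogen of macrophage precursors, so cultured BMDMs can contain cycling cells.

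Total counts were between 8520433 and 20123570 in the control libraries and between 4088065 and 11610020 in the NaCl libraries, with the lowest in the NaCl library of mouse 3. Levels are given as CPM, the count of a gene per 1000000 counts of a library size scaled by edgeR, and values of 3 libraries stand in the order of mice 1, 2 and 3. The lowest total count of a member over the 6 libraries was 301. Macrophage markers were present in every library, with 9 of 9 genes tested and a summed level of 15826 to 17717 CPM in control and 24566 to 31980 CPM in NaCl libraries. Lyz2 was the largest part of each sum, at 10040, 10194 and 9219 CPM in control and 16456, 23249 and 17741 CPM in NaCl libraries. The median log2 fold change of the 9 genes with NaCl was -0.065, so the higher sum was not shared by the whole list. Of 7 erythroid markers, 6 did not reach the count minimum, among them the globin genes Hba-a1, Hba-a2, Hbb-bs and Hbb-bt. Of 6 B cell markers, 2 reached it, Cd79a and Cd79b, while Pax5 was among those that did not. Of 4 T cell markers, 1 reached it, Lck, and Cd3d, Cd3e and Cd3g did not. Cd79b was at 9.55, 5.44 and 4.89 CPM in control and 10.1, 2.81 and 4.31 CPM in NaCl libraries, highest in mouse 1 in both groups. Markers of marrow progenitors, which also divide, summed to 33.3 to 42.9 CPM in control and 35.6 to 43.1 CPM in NaCl libraries.

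The comparison of NaCl with control asked how the replication genes responded to excess NaCl. The log2 fold change was above 0 in 47 of the 48 genes. It ran from -0.11 to 0.82, and the median gene had 0.47. Pcna was the only gene below 0. With 1 library left out, between 42 and 48 genes were above 0, and the median ran from 0.29 without the NaCl library of mouse 2 to 0.70 without that of mouse 1. Over all 15903 genes tested, 49.2% had a log2 fold change above 0 and the median was -0.01. The members took 0.215%, 0.294% and 0.303% of all counts in the control libraries and 0.249%, 0.446% and 0.423% in the NaCl libraries. Within each mouse the share was higher with NaCl. In bulk RNA, a change in the share of cells in S phase and a change in the RNA per cell cannot be told apart.

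Most of these differences did not pass a test against the spread between the libraries of a group. In edgeR's quasi-likelihood test without a term for the mouse, 1 member, E2f2, passed an adjusted p of 0.05 as higher and 0 as lower, while 0.478% of all genes tested passed as higher and 0.176% as lower. At an unadjusted p under 0.05, 15 members were higher, against 6.63% of all genes, and 0 were lower. This number was 5 without the control library of mouse 1, 12 and 18 without those of mice 2 and 3, and 37, 5 and 4 without the NaCl library of mouse 1, 2 or 3. DESeq2 without the mouse also called 1 member, against 1.54% of all genes. The labels tie each NaCl library to the control library of the same mouse. With the mouse as a replicate block, 26 of the 48 members passed as higher and 0 as lower, against 4.6% of all genes passing as higher and 4.3% as lower. The median SE of the log2 fold change was 0.23 without and 0.13 with the block. DESeq2 with the block called 21 members as higher, against 2.84% of all genes, and lost Pola2, Rpa2, Dut, Slbp and Brca1. In edgeR with the block, 20, 26 and 20 members passed when mouse 1, 2 or 3 was left out, and 14 when every library was thinned to the smallest.

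In most members the 3 mice shared the direction. Of the 48 members, 39 were higher with NaCl in each of the 3 mice, against 20.1% of all genes tested. The median log2 ratio of NaCl to control within a mouse was 0.28 in mouse 1, 0.61 in mouse 2 and 0.51 in mouse 3, and it was positive in 43, 45 and 44 members. The groups still overlapped in nearly all members, as they did in most genes tested. Only in E2f2 and Rfc5 were all 3 NaCl libraries above all 3 control libraries, that is in 2 of 48 members, against 8.92% of all genes.

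**Figure D1:**
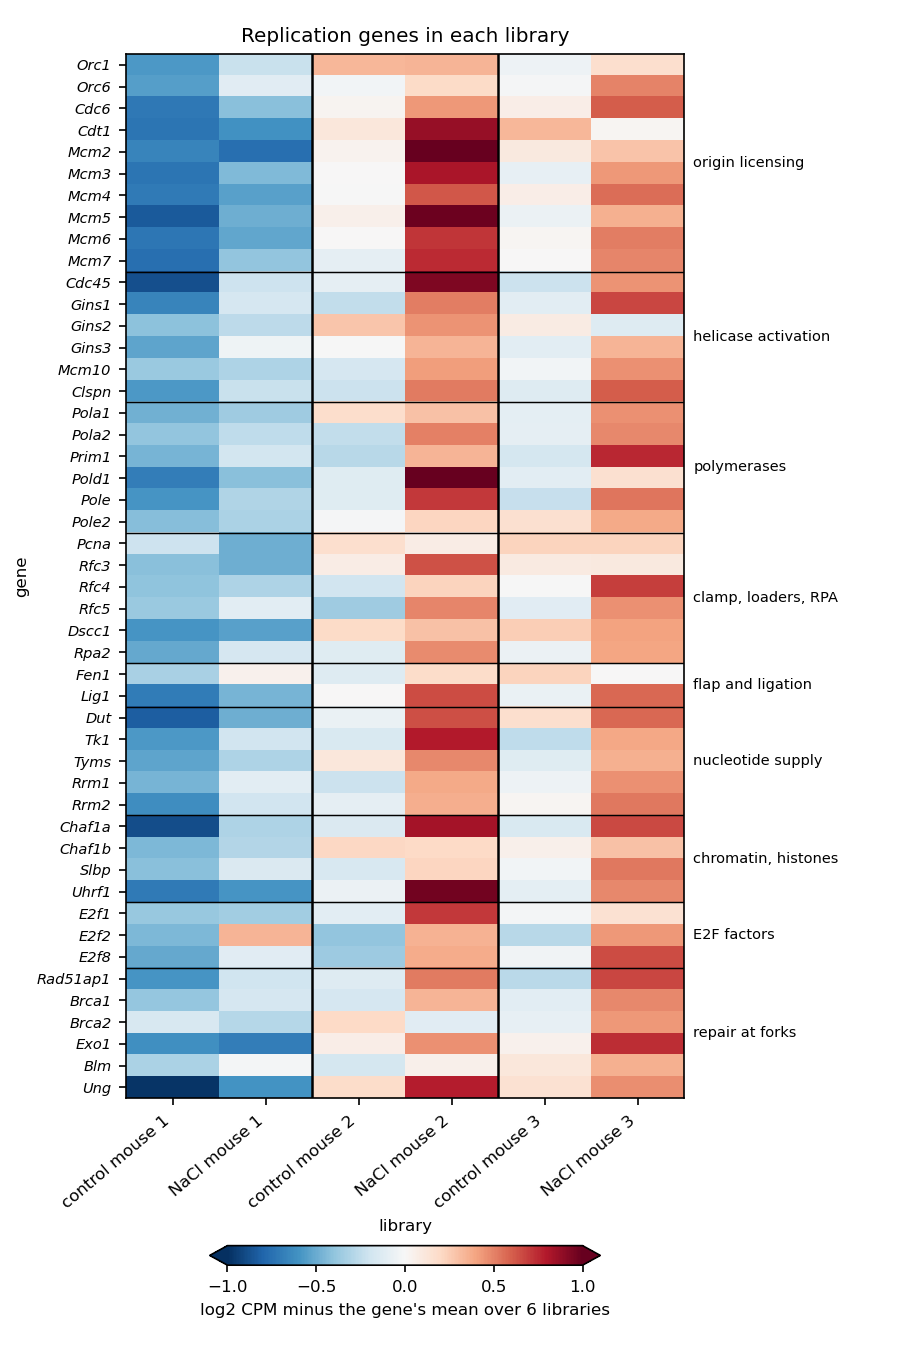
Level of each of the 48 genes (rows, grouped by role) in the 6 libraries (columns, control and NaCl side by side for each mouse), as log2 CPM minus the gene's mean over the 6 libraries. Both columns of mouse 1 are mostly blue and both NaCl columns of mice 2 and 3 mostly red, with E2f2 red in the NaCl library of every mouse and Pcna bluer with NaCl in mouse 1.

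Promoters of the members were read from RefSeq (GRCm38.p6), from 250 bases before to 50 after each annotated start, because genes that move together may share sequence there. Promoters of 42 of the 48 members were in the table. They were searched on both strands for forms of the E2F core, which were spelled TTCCCGC for the first form, TTGGCGC for the second form and TTCGCGC for the third form. For comparison the CHR element, spelled TTTGAA here, and the NF-Y box, spelled CCAAT, were searched. The reverse complement of the NF-Y box can overlap the second form of the E2F core. The windows printed here are those of the helicase subunits Mcm5 and Mcm6, of E2f2, which passed without the block, and of Cdc45 and Pcna, which held no E2F core and lay near the top and at the bottom of the fold changes. Capitals mark the E2F core forms and each sequence reads from 5′ to 3′ on the gene's strand.
Mcm5: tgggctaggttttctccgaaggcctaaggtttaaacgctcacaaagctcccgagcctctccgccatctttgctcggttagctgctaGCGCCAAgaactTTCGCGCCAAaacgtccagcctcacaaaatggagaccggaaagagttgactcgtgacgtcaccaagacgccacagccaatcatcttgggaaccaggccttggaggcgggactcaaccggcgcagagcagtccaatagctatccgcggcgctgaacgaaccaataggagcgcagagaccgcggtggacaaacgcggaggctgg
Mcm6: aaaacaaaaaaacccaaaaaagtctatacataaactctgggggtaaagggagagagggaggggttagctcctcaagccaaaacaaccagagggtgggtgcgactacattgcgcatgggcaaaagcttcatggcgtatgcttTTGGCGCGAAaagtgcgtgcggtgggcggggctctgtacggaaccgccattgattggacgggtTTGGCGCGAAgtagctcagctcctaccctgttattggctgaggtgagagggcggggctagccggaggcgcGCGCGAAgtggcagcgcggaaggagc
E2f2: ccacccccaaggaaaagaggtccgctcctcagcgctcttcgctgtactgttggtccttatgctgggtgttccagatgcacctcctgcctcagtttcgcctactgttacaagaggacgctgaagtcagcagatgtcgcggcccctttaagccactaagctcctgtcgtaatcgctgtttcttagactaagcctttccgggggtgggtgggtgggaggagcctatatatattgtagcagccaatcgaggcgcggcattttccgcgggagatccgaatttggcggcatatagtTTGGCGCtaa
Cdc45: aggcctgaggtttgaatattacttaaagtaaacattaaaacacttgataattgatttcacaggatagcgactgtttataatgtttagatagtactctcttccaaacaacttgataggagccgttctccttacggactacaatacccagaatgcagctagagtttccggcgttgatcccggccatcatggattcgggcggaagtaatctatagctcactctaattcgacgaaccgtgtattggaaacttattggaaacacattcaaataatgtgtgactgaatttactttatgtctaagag
Pcna: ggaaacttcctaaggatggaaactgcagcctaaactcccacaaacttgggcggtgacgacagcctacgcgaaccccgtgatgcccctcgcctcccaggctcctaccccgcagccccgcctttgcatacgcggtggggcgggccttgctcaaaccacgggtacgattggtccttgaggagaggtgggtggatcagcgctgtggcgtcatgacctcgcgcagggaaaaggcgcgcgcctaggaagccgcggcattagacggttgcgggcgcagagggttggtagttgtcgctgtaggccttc

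The Mcm5 window is chr8:75109259-75109558 on the plus strand and holds 3 matches, all upstream of the start. The Mcm6 window, chr1:128359656-128359955 on the minus strand, holds 5 matches, some of them overlapping on opposite strands. The E2f2 window is chr4:136172024-136172323 on the plus strand, the first of 2 starts listed, and holds 1 match downstream of the start. The Cdc45 window, chr16:18811923-18812222, and the Pcna window, chr2:132253131-132253430, both on the minus strand, hold 0.

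Among the 10 origin licensing genes, 5 passed with the block, and all 5 were subunits of the MCM ring. The median log2 fold change of the 10 was 0.47, and 8 of them were higher with NaCl in 3 of 3 mice. Mcm6 (chromosome 1) was the most abundant, with 167, 276 and 279 CPM in the control libraries and 192, 453 and 392 CPM in the NaCl libraries. Its NaCl library of mouse 1 lay below the control libraries of mice 2 and 3, so the groups overlapped, although each mouse had the higher value with NaCl. The log2 fold change was 0.52 ± 0.30 (SE), and edgeR's adjusted p was 0.52 without the block and 0.0129 with it, which was 0.0503 without mouse 3. Mcm5 (chromosome 8), with 3 E2F cores in its window, was at 99.5, 184 and 170.4 CPM in control and 127, 350.4 and 228 CPM in NaCl libraries. The same order appeared, with mouse 1 far below the others and a higher value with NaCl in each mouse, and the change was 0.64 ± 0.34 with an adjusted p of 0.475 without and 0.00372 with the block. Mcm3 (chromosome 1) was at 90.7, 151 and 143 CPM in control and 111, 264 and 203 CPM in NaCl libraries. Mcm7 (chromosome 5) was at 65.8, 105 and 111 CPM in control and 84.8, 186 and 156 CPM in NaCl libraries. Both rose with the block, by 0.54 ± 0.12 (adjusted p = 0.00468) for Mcm3 and by 0.57 ± 0.12 (adjusted p = 0.00298) for Mcm7. Without the NaCl library of mouse 2 and without the block, the log2 fold changes were 0.23 for Mcm5, 0.28 for Mcm6, 0.29 for Mcm3 and 0.35 for Mcm7. In the GENCODE M21 models, 12.6% of the exonic bases of Mcm7 overlap other genes, chiefly Ap4m1 on the other strand. Reads there cannot be assigned by unstranded counting. Of the stretches of 75 bases of Mcm7, 13.2% are also found in other genes, chiefly Gm5487.

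The other subunits did not all pass. Mcm4 passed with the block, with a log2 fold change of 0.43 ± 0.12 and an adjusted p of 0.023. Mcm2 was lower with NaCl in mouse 1 and higher in mice 2 and 3, and its adjusted p was 0.128 with the block. Per kilobase of exon, the mean level over the 6 libraries ran from 14.2 CPM in Mcm2 through 26.7 in Mcm7, 31.2 in Mcm4, 42.8 in Mcm3 and 48.3 in Mcm5 to 62.8 in Mcm6. Of the factors that load the ring, Cdt1 had a log2 fold change of 0.20 ± 0.15 with the block (adjusted p = 0.469) and was lower with NaCl in mouse 3. For Cdc6 the value was 0.42 ± 0.14 (adjusted p = 0.0642), for Orc6 0.38 ± 0.14 (adjusted p = 0.082), and for Orc1, the largest subunit of the origin recognition complex, 0.17 ± 0.21 (adjusted p = 0.718). None of these 4 loading factors passed in either fit. Of the exonic bases of Orc1, 10.8% overlap other genes, chiefly Gm12743.

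In the group of helicase activation, 3 of 6 genes passed with the block, and the median log2 fold change was 0.52. Cdc45 (chromosome 16), which joins the MCM ring to form the active helicase, was at 15.9, 27.4 and 25.1 CPM in control and 25.4, 55.9 and 40.01 CPM in NaCl libraries. It was higher in each mouse, by 0.67, 1.02 and 0.67 on the log2 scale in mice 1, 2 and 3, and the mean went from 22.8 ± 6.1 to 40.4 ± 15.3 CPM (SD, n = 3). The log2 fold change of 0.82 ± 0.29 had an adjusted p of 0.279 without the block and 0.000253 with it in edgeR. Clspn (chromosome 4), which encodes claspin, an adaptor of the replication checkpoint that travels with the fork, was at 41.5, 53.2 and 56.5 CPM in control and 53, 88.5 and 93.9 CPM in NaCl libraries. Its NaCl library of mouse 1 lay among the controls, and the change was 0.61 ± 0.12 with the block (adjusted p = 0.00162). Gins1 (chromosome 2), a GINS subunit, was at 10.1, 13.5 and 14.8 CPM in control and 14.2, 22.8 and 25.4 CPM in NaCl libraries and rose with the block by 0.68 ± 0.15 (adjusted p = 0.0044). The other GINS subunits did not pass, with log2 fold changes with the block of 0.05 ± 0.14 for Gins2 and 0.42 ± 0.17 for Gins3. Of the exonic bases of Gins2, 67.3% lie under other genes, chiefly Gse1 on the other strand, so its count is uncertain. Mcm10, which helps to start unwinding, had a value of 0.39 ± 0.13 and an adjusted p of 0.0684 with the block.

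All 6 polymerase genes were higher with NaCl in 3 of 3 mice, 4 of 6 passed with the block, and the median log2 fold change was 0.58. Pole (chromosome 5), the catalytic subunit of the polymerase assigned to the leading strand, was at 44.6, 61.8 and 57.4 CPM in control and 54.5, 109.5 and 97.5 CPM in NaCl libraries. Its NaCl library of mouse 1 was the only NaCl library inside the control range, and the change was 0.64 ± 0.13 with the block (adjusted p = 0.00147). Pold1 (chromosome 7), the catalytic subunit of the polymerase assigned to the lagging strand, was at 39.7, 58.8 and 59.5 CPM in control and 48.1, 145 and 71.4 CPM in NaCl libraries. The NaCl library of mouse 2 stood above the other 5 libraries, with log2 ratios within mice 1, 2 and 3 of 0.27, 1.30 and 0.26. Pold1 passed with the block at an adjusted p of 0.00844, and with mouse 2 left out its log2 fold change was 0.28 and its adjusted p 0.143. Prim1 (chromosome 10), the primase that makes the RNA primer, was at 19.1, 21.7 and 23.4 CPM in control and 23.2, 33.4 and 44.6 CPM in NaCl libraries. It rose with the block by 0.62 ± 0.14 (adjusted p = 0.00565), and its partner Pola2, the accessory subunit of the priming polymerase, by 0.50 ± 0.13 (adjusted p = 0.0156). In DESeq2 with the block Pola2 did not pass (0.0545). Without mouse 3 the adjusted p of Prim1 with the block was 0.0904. Pola1, which encodes the catalytic subunit of the same enzyme, had 0.26 ± 0.13 (adjusted p = 0.217), and Pole2 had 0.19 ± 0.16 (adjusted p = 0.547).

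The clamp Pcna (chromosome 2) was the only member with a log2 fold change below 0, and its promoter window, printed above, was without an E2F core. It was at 278, 361 and 375 CPM in control and 229, 339 and 374 CPM in NaCl libraries, and it was the most abundant member per kilobase of exon, with a mean of 136 CPM per kilobase over the 6 libraries. It was lower with NaCl in each mouse, with log2 ratios of -0.28, -0.094 and -0.0038 in mice 1, 2 and 3, but the groups overlapped and the ratio of mouse 3 was close to 0. The log2 fold change was -0.11 ± 0.19 with an adjusted p of 0.865 without the block and 0.589 with it, so no change of Pcna was detected. Without the NaCl library of mouse 1 it was 0.077. In the models, 13.8% of the stretches of 75 bases, the read length, of Pcna are also found in other genes, chiefly the pseudogene Pcna-ps2. The median log2 fold change of the clamp, clamp loader and single-strand binding group was 0.32, and 2 of its 6 genes passed with the block.

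Rfc5 (chromosome 5), a subunit of the loader that opens the clamp, was at 35.6, 35.9 and 42.5 CPM in control and 42.7, 64.6 and 63 CPM in NaCl libraries. Its lowest NaCl library lay just above its highest control library. The change was 0.57 ± 0.18, with an adjusted p of 0.22 without the block and 0.00539 with it in edgeR. Rpa2, which covers single-stranded DNA, rose with the block by 0.47 ± 0.13 in edgeR (adjusted p = 0.0162), but did not pass in DESeq2 with the block (0.0511). The other loader genes did not pass, with 0.19 ± 0.15 for Rfc3, 0.42 ± 0.17 for Rfc4 and 0.11 ± 0.20 for Dscc1, a subunit of an alternative loader. Overlaps with other genes cover 12.7% of the exonic bases of Rfc4 and 10.7% of those of Rfc5. The chief overlapping genes, both on the other strand, are Eif4a2 for Rfc4 and Wsb2 for Rfc5.

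Lig1 (chromosome 7), the ligase that seals the lagging strand, was at 74.8, 121 and 115 CPM in control and 87.8, 190.4 and 181 CPM in NaCl libraries. It was higher in each mouse and rose with the block by 0.51 ± 0.12 (adjusted p = 0.0065), which was 0.051 without mouse 3. Fen1, the flap nuclease, was at 3.64, 4.17 and 5.3 CPM in control and 4.69, 5.17 and 4.55 CPM in NaCl libraries, with a log2 fold change of 0.17 ± 0.23 with the block (adjusted p = 0.75). Its low count is uncertain, since 84.2% of its exonic bases lie in other genes, chiefly Gm10143 on the other strand.

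**Figure D2:**
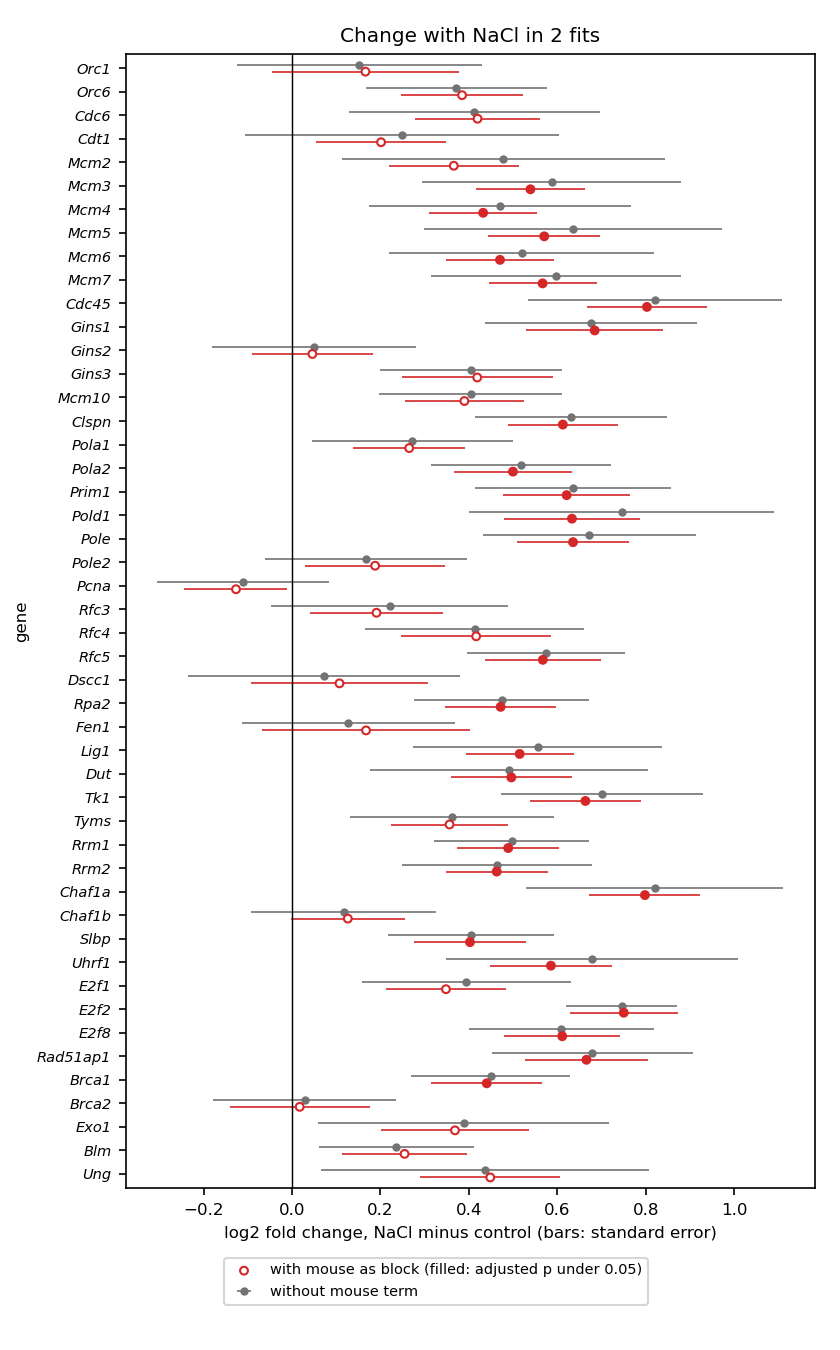
Log2 fold change of NaCl against control with its SE for each of the 48 genes, in edgeR's test without the mouse and with the mouse as replicate block. Grey symbols show the test without the block, in which E2f2 alone passed an adjusted p of 0.05. Red symbols show the test with the block, filled in the 26 genes that passed and open in the others. The values of the fits lie close together while the SE bars are shorter with the block, and Pcna lies left of 0 in both.

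All 5 genes of nucleotide supply were higher with NaCl in 3 of 3 mice, and 4 of 5 passed with the block. Tk1 (chromosome 11), the thymidine kinase of the salvage pathway, was at 58.9, 79 and 73.5 CPM in control and 76.9, 152 and 115 CPM in NaCl libraries. The NaCl library of mouse 1 lay below the highest control, and the other NaCl libraries lay above all controls. The log2 fold change of 0.70 ± 0.23 had an adjusted p of 0.246 without the block and 0.00081 with it. Rrm1 (chromosome 7), the large subunit of ribonucleotide reductase, was at 145, 173 and 194 CPM in control and 186, 261 and 276 CPM in NaCl libraries. Rrm2 (chromosome 12), its S phase subunit, was at 71.6, 103 and 111 CPM in control and 96.1, 142 and 158 CPM in NaCl libraries. Both subunits rose by a like amount with the block, by 0.49 ± 0.12 (adjusted p = 0.00673) and 0.46 ± 0.12 (adjusted p = 0.00989). Neither passed with the block when mouse 1 was left out, with adjusted p-values of 0.0616 and 0.117, and Rrm2 had 0.0534 without mouse 3. Dut, which removes dUTP, rose with the block by 0.50 ± 0.14 in edgeR (adjusted p = 0.0204), but not in DESeq2 with the block (0.0817). Tyms, the thymidylate synthase, had 0.36 ± 0.13 and an adjusted p of 0.0954.

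Chaf1a (chromosome 17), the large subunit of chromatin assembly factor, was at 26.9, 45 and 44.8 CPM in control and 40.1, 88.6 and 78.8 CPM in NaCl libraries. It was higher in each mouse, by 0.57, 0.97 and 0.81 on the log2 scale in mice 1, 2 and 3, from a mean of 38.9 ± 10.4 to 69.2 ± 25.6 CPM (SD, n = 3). With the block it had the lowest adjusted p of the 48 genes, 9.98e-05, against 0.284 without it. Because 52.5% of its exonic bases lie under other genes, chiefly Ubxn6 on the other strand, its count is uncertain. Chaf1b, its partner subunit, was lower with NaCl in mouse 2 by a small margin and had 0.13 ± 0.13 with the block (adjusted p = 0.634). Uhrf1 (chromosome 17), which reads hemimethylated DNA behind the fork, was at 70.8, 111 and 108 CPM in control and 76.7, 226 and 161 CPM in NaCl libraries. The difference was small in mouse 1 and large in mouse 2, with log2 ratios of 0.11, 1.02 and 0.58 in mice 1, 2 and 3, and Uhrf1 rose with the block by 0.59 ± 0.14 (adjusted p = 0.00616), and by 0.37 with mouse 2 left out. Slbp, which binds the stem-loop of histone mRNAs, also passed with the block in edgeR, with 0.40 ± 0.13 (adjusted p = 0.0437), but not in DESeq2 with the block (0.124).

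Of the E2F factors, 2 of 3 passed with the block, and the only call without the block was in this group. E2f2 (chromosome 4), an activating E2F, was at 34.7, 36.1 and 39 CPM in control and 60.0, 60.5 and 64.2 CPM in NaCl libraries. The groups were well apart, and the 3 mice nearly coincided in both. The mean rose from 36.6 ± 2.22 to 61.6 ± 2.3 CPM (SD, n = 3), with log2 ratios of 0.79, 0.74 and 0.71 in mice 1, 2 and 3. The log2 fold change was 0.75 ± 0.13, and edgeR gave it an adjusted p of 0.0384 without the block and 0.000148 with it, and of 0.000167 in DESeq2 without it. Without the block, leaving out any 1 library other than the NaCl library of mouse 1 took the adjusted p of E2f2 to between 0.0724 and 0.304, with log2 fold changes from 0.71 to 0.81. With the block it passed whichever mouse was left out. E2f8 (chromosome 7), an atypical E2F that represses E2F targets late in S phase, was at 24.1, 26.7 and 33.6 CPM in control and 31.7, 44.5 and 53.9 CPM in NaCl libraries and rose with the block by 0.61 ± 0.13 (adjusted p = 0.0028). E2f8 shares 11.2% of its exonic bases with other genes, chiefly Gm2788 on the other strand. E2f1 (chromosome 2), another activating E2F, was at 55.7, 67.5 and 71.5 CPM in control and 57, 118 and 80.5 CPM in NaCl libraries. Mouse 2 alone was far above the controls, and E2f1 did not pass with the block, at 0.35 ± 0.14 (adjusted p = 0.114), or 0.11 with mouse 2 left out.

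Of the 6 genes of repair at forks, 2 passed with the block. Rad51ap1 (chromosome 6), which acts in homologous recombination, was at 19.2, 26.5 and 24.1 CPM in control and 25.3, 41.6 and 46 CPM in NaCl libraries. It was higher in each mouse, and its change was 0.67 ± 0.14 with the block (adjusted p = 0.00213). Brca1 (chromosome 11), which acts in the same process, was at 36.5, 42.4 and 44.4 CPM in control and 42.4, 60.4 and 66.6 CPM in NaCl libraries. The NaCl library of mouse 1 had the level of the control of mouse 2, and the change was 0.44 ± 0.13 with the block (adjusted p = 0.0245). Without mouse 1 the adjusted p of Brca1 with the block was 0.0584, and without mouse 3 it was 0.144. In DESeq2 with the block and all mice it was 0.0717. Brca2, also a recombination gene, was lower with NaCl in mice 1 and 2 and higher in mouse 3, with 0.02 ± 0.16 and an adjusted p of 0.968 with the block. Exo1, an exonuclease, Blm, a helicase, and Ung, which removes uracil from DNA, had 0.37 ± 0.17, 0.25 ± 0.14 and 0.45 ± 0.16 with the block, and none passed.

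The replication genes also differed between the mice. Each mouse gave 1 library per group, so animal, marrow preparation, culture and library handling cannot be told apart in this difference. With treatment in the model, 32 of the 48 members differed between the 3 mice in edgeR's test of the mouse term, against 8.89% of all genes tested. Mouse 1 was the lowest of the control libraries in 48 members, against 40.5% of all genes, and the lowest of the NaCl libraries in 47, against 30.4%. It was lowest in both groups in 47 members, against 20.1% of all genes, and the exception was Fen1. The median member was 0.66 higher in mouse 2 than in mouse 1 on the log2 scale and 0.60 higher in mouse 3 than in mouse 1, while mice 2 and 3 differed by 0.01. The difference of mouse 1 from the mean of the other two ran from -1.17 in Ung to -0.08 in E2f2, with a median of -0.59. For the typical member the difference between mouse 1 and the others was thus larger than the median log2 fold change with NaCl.

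The MCM genes had among the lowest adjusted p-values of the mouse term, 2.73e-05 for Mcm5, 0.000101 for Mcm6 and 0.000119 for Mcm2. Cdt1, at 55.1, 98.9 and 115 CPM in control and 60.1, 167 and 92.9 CPM in NaCl libraries, was lowest in mouse 1 in both groups (adjusted p = 0.00017). Cdt1 did not pass for NaCl, and it was 1 of 13 members that differed between mice without passing for NaCl with the block. In 19 members both tests passed, in 7 only that for NaCl, and in 9 neither. E2f2 was among the 7, with an adjusted p of the mouse term of 0.836, and so were Rfc5 (0.224) and Brca1 (0.116). Pcna passed for the mouse (0.0213) and differed by -0.52 on the log2 scale in mouse 1 from the mean of the other two. The count of 32 rested in part on mouse 1, since 3 members passed the mouse term without its NaCl library and 16 without its control library, against 24 to 42 without any 1 of the other 4 libraries. With total count scaling 19 members passed it, and with every library thinned to the smallest 14.

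**Figure D3:**
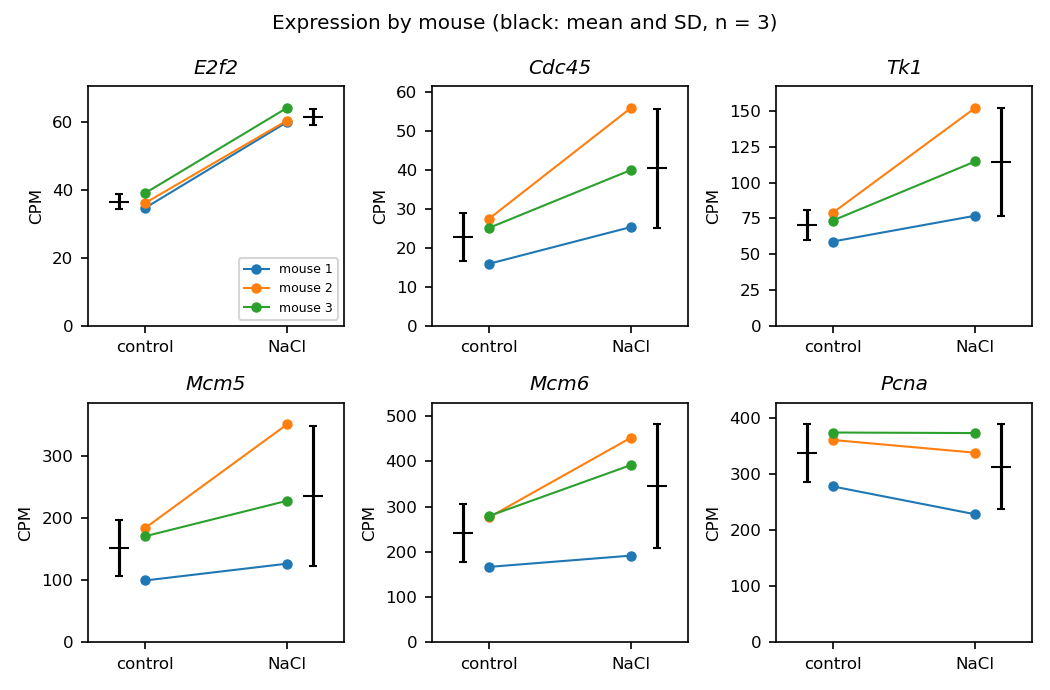
CPM of E2f2, Cdc45, Tk1, Mcm5, Mcm6 and Pcna in the 6 libraries, with points joined within a mouse and the mean and SD of each group. The E2f2 points of the 3 mice nearly coincide in each group, the Mcm5 and Mcm6 points of mouse 1 lie far below those of mice 2 and 3, and the Pcna lines do not rise.

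Other cell type markers also differed between the mice. The summed level of 9 neutrophil markers was 254.8, 555 and 419 CPM in the control libraries and 279, 403 and 314 CPM in the NaCl libraries, lowest in mouse 1 in both groups, and 4 of the 9 passed the mouse term. The monocyte marker Ccr2, which falls as monocytes mature, was at 211, 83.3 and 98.2 CPM in control and 258, 38.7 and 99.2 CPM in NaCl libraries, highest in mouse 1. The progenitor marker Cd34 was at 9.21, 15.9 and 26.6 CPM in control and 16.3, 24.0 and 34.3 CPM in NaCl libraries, so it was lowest in mouse 1 in both groups and higher with NaCl in each mouse. Cd34 was the only 1 of the 8 progenitor markers with this order of the mice. Its difference of mouse 1 from the mean of the other two was -0.97 on the log2 scale, while the other 7 were higher in mouse 1, from 0.24 in Ms4a3 to 0.95 in Ctsg. The part of these markers in the difference between mice and in the rise with NaCl was not tested. With NaCl, 1 of 9 macrophage markers, Lyz2, passed as higher without the block, and with it Lyz2 and Csf1r passed as higher and C1qc as lower. With the block Cd34 rose and Mpo fell among 8 progenitor markers, F13a1 rose among 5 monocyte markers and Ngp fell among 9 neutrophil markers. DESeq2 with the block called none of these 4, with adjusted p-values of 0.0552, 0.141, 0.519 and 0.0664.

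Genes of a mitosis list moved with NaCl but mostly not with the mouse in the way the replication genes did. Of a list of 24 mitosis genes, all 24 had a log2 fold change above 0, with a median of 0.63, and were higher in 3 of 3 mice. Over all genes tested, 49.2% were above 0 and 20.1% were higher in 3 of 3 mice. Without the block 6 passed as higher (Ccnb1, Bub1b, Aurkb, Plk1, Prc1 and Nuf2), against 0.478% of all genes, and with the block 21, against 4.6%. The 12 with the lowest p with the block were these 6 with Cdc20, Ccnb2, Top2a, Ccna2, Kif11 and Nusap1. The mouse term passed in 2 of the 24, Ccnb2 and Cenpf (8.33%), which was near the share of all genes tested (8.89%). Mouse 1 was the lowest in both groups in 3 of 24, Ccna2, Cdk1 and Bub1 (12.5%), against 20.1% of all genes. The median difference of mouse 1 from the other mice was 0.06 in the mitosis genes, against -0.59 in the replication genes. The median deviation from the mean over libraries was -0.55, -0.08 and -0.04 in control and -0.30, 0.47 and 0.46 in NaCl libraries for the replication genes, and -0.21, -0.42 and -0.31 in control and 0.30, 0.11 and 0.49 in NaCl libraries for the mitosis genes. These contrasts between the lists are descriptions without a test, and both rest on the same 6 libraries.

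**Figure D4:**
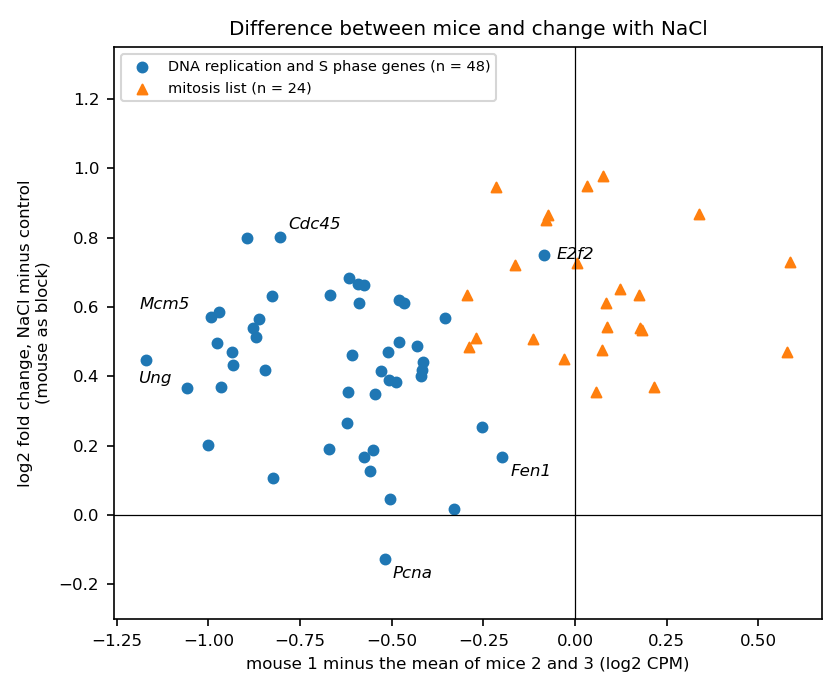
Each gene's difference of mouse 1 from the mean of mice 2 and 3 (x, log2 CPM) against its log2 fold change with NaCl with the mouse as block (y), for the 48 replication genes and the 24 mitosis genes. The replication genes lie left of 0, with a median of -0.59 and with E2f2 closest to 0 at -0.08, while the mitosis genes lie around 0, from -0.29 to 0.59.

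Further genes of the pathway had a smaller median change. Of 65 other genes of replication, nucleotide metabolism and E2F control, all 65 were tested, 53 had a log2 fold change above 0, and the median was 0.25. Over all genes tested, 49.2% were above 0. Without the block 0 passed in either direction in edgeR, with 15 higher and 1 lower at an unadjusted p under 0.05. At that threshold 6.63% of all genes were higher. DESeq2 without the block called 3 as higher (Dna2, Asf1b and Esco2), against 1.54% of all genes. With the block 17 passed as higher (26.2%) and 1 as lower, against 4.6% and 4.3% of all genes. The 12 with the lowest p were Asf1b, Ccne1, Chtf18, Rbl1, Ticrr, Recql4, Dna2, Esco2, Pclaf, Wdhd1, E2f7 and Cdc7, of which DESeq2 with the block did not call E2f7 (adjusted p = 0.0511) and Cdc7 (0.0555). Asf1b, a histone chaperone that hands histones to the chromatin assembly factor, went from 47.9 ± 7.27 to 79.6 ± 21.4 CPM (SD, n = 3), with an adjusted p of 0.000326 with the block. Ccne1, the cyclin that drives entry into S phase, went from 19.6 ± 6.64 to 32.7 ± 10.9 CPM, with an adjusted p of 0.000719. Recql4, a helicase needed to start replication, had the largest log2 fold change of those that passed, 0.88 with the block, and the activator Ticrr had 0.69. Among regulators of E2F, Rbl1 rose by 0.59 with the block (adjusted p = 0.00155) and Rb1 fell by 0.42 (adjusted p = 0.0469), and both encode proteins of the retinoblastoma family that bind E2F factors. Rb1 was named after its value was seen, as the only gene of the list that passed as lower, and DESeq2 with the block did not call it (adjusted p = 0.152). The mouse term passed in 27 of the 65 (41.5%), against 8.89% of all genes.

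The E2F core and the other motifs were counted over all promoters. A gene with several annotated starts counted if any of its windows held the motif. At least 1 E2F core was found in 27 of the 42 members with a promoter (64.3%), against 16.3% of 10844 tested genes with a promoter. In the mitosis list it was found in 3 of 21 (14.3%), and in the wider replication list in 25 of 50. The CHR element had the opposite distribution, in 14.3% of members, 14.7% of tested genes and 71.4% of the mitosis list. The NF-Y box was in 61.9% of members, 42.9% of tested genes and 81% of the mitosis list. Within the members, the E2F core was in 16 of the 23 that passed with the block and in 11 of the 19 that did not. It was in 17 of the 26 that differed between mice and in 10 of the 16 that did not. These shares describe letters in a window and not binding. Median GC content of the windows was 57.8% in members and 60.3% in tested genes.

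**Figure D5:**
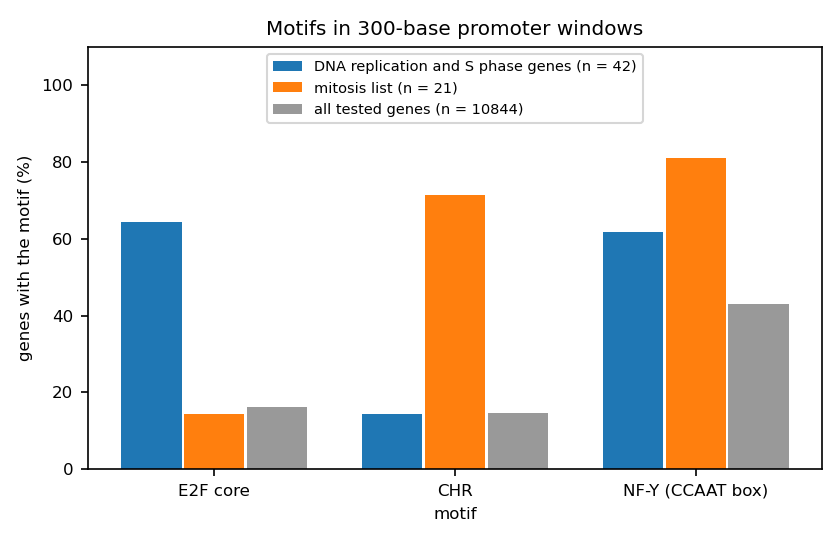
Percentage of genes with at least 1 match of the E2F core, the CHR element or the NF-Y box in the window from 250 bases before to 50 after the start, for the members, the mitosis list and all tested genes. The E2F bar is highest in members (64.3%) and the CHR bar in the mitosis list (71.4%).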

How the data were processed

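RNA was sequenced from BMDMs of 3 mice, 1 control and 1 NaCl library each. Per the labels and the study's methods, reads of 75 bp were trimmed with fastp 0.20.0 and aligned and counted per gene with STAR 2.7.10b without regard to strand. The authors deposited raw counts per gene and a normalized signal, in which each library's counts were scaled by a DESeq2 size factor. Raw counts divided by that signal gave 1 factor per library, so the raw counts were used. The methods name mm10 with an annotation (GENCODE vM32) of another build, so genes are placed by chromosome only. Exon lengths, overlaps and shared windows came from GENCODE M21, and promoters from RefSeq (GRCm38.p6).

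The test was edgeR 4.0.16 (TMM, glmQLFit, glmQLFTest), NaCl against control, on the 15903 genes whose counts summed to 10 or more, with Benjamini-Hochberg adjustment and a threshold of 0.05. CPM used TMM-scaled library sizes, and log2 CPM a prior count of 2. The same test was repeated with a replicate block for the mouse, and the mouse coefficients were tested with treatment in the model. Groups and mice came from the labels. The pairing was taken from the labels too. Deviations from the group mean correlated across genes with r = 0.43, 0.15 and 0.22 for mice 1, 2 and 3, and -0.35 to 0.12 for other pairs. The deviations of a group sum to 0, so positive values in same-mouse pairs force lower ones in other pairs. For mouse 2 the 0.15 was close to the 0.12 of its NaCl library with the control library of mouse 3. These values are therefore no test of the pairing. With 3 libraries per group, only the spread between these mice was measured.

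Alternatives were DESeq2 1.42.0 with and without the block, limma-voom (limma 3.58.1), scaling by median-ratio size factors or by total counts, filters by filterByExpr or by a sum of 1 count, thinning to 4088065 counts, and leaving out each library. The block combined with leaving out a mouse, thinning or other scaling was chosen after seeing the data. The scripts were tested on simulated data. R 4.3.3 and Python 3.11.15 were used.

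The members and all lists were chosen with earlier results of these data known. Values in all 6 libraries are given for members past the threshold without the block, for at most 20 with the lowest p with the block, and for the most abundant and the most changed member of each role group. The rule gave 23 members. Values of Fen1 and Cdt1 were added after they were seen. Of other lists, the genes with the lowest p past the threshold with or without the block are named, at most 12 per list, with values for some of them. The flow cytometry and other experiments of the study were not analysed here.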

Additional observations from a re-analysis of the deposited data

How the results depend on the processing

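The direction of the 23 members named with all their values was kept in every alternative run, except that Pcna was at 0.077 without NaCl replicate 1, with a range of -0.25 to 0.077 over the fits that left out 1 library. Sizes moved with 1 library left out: the median log2 fold change of the members, 0.47, ran from 0.29 to 0.70, and without control replicate 1 that of Mcm6 went from 0.52 to 0.32, of Mcm5 from 0.64 to 0.41 and of Rrm2 from 0.46 to 0.30, without NaCl replicate 2 those of Pold1 from 0.75 to 0.17, of Uhrf1 from 0.68 to 0.29, of Cdc45 from 0.82 to 0.50, of Tk1 from 0.70 to 0.44, of Lig1 from 0.56 to 0.36 and of E2f1 from 0.39 to 0.077, and without NaCl replicate 3 that of Prim1 from 0.64 to 0.40. Without NaCl replicate 1, Mcm6 was at 0.81, Lig1 at 0.84 and E2f1 at 0.62. The number of calls varied too, most of all with the replicate block. Members higher in NaCl numbered 1 without the block, as also with DESeq2, limma-voom, both other scalings, filterByExpr and thinning, 15 with a minimum total count of 1, and 26 with the mouse as replicate block (21 in DESeq2 with the block). Leaving out 1 library without the block gave 0 to 6. With the block and mouse 1, 2 or 3 left out there were 20, 26 and 20, with the block and thinning 14, with the block and median-ratio size factors 26, and with the block and total count scaling 25. No alternative called a member lower.

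In the wider replication list, 0 were higher without the block, 3 with DESeq2, 9 with a minimum total count of 1, 17 with the block, 12 with the block in DESeq2, and 0 to 1 with 1 library left out. The block with mouse 1, 2 or 3 left out gave 11, 20 and 15, with thinning 7, with median-ratio size factors 18 and with total count scaling 15. Lower in that list were 0 without and 1 with the block, and 1 with the block without mouse 2 or without mouse 3.

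Over all genes, 76 were higher and 28 lower without the block. The numbers were 245 and 155 with DESeq2, 362 and 300 with a minimum total count of 1, 43 and 16 after thinning, 732 and 684 with the block, and 452 and 354 with the block in DESeq2. With 1 library left out they ran from 8 to 123 and from 0 to 46. With the block, leaving out mouse 1 gave 469 and 417, mouse 2 758 and 661, and mouse 3 715 and 585, thinning gave 276 and 180, median-ratio size factors 778 and 653, and total count scaling 642 and 540.

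Members differing between mice numbered 32, and 19 with total count scaling, 14 after thinning and 3 to 42 with 1 library left out. For all genes the number was 1413, and 804 with DESeq2's likelihood ratio test, 371 after thinning and 352 to 4586 with 1 library left out. The causes of these differences were not tested, except that leaving out libraries or thinning reduces the data by construction. The smallest library, NaCl replicate 3, sets the counting precision of the lowest members, such as Fen1 and Dscc1.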
